A study of Rattus norvegicus with 16 samples.

Results

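The 9 genes Nqo1, Gclc, Gclm, Hmox1, Txnrd1, Srxn1, Gsr, Gss and Slc7a11 stand for the antioxidant programme of the transcription factor NRF2 and for the supply of glutathione in rat liver. They were chosen by symbol, and all 9 were found among the 17168 genes of both deposited tables. NRF2, the product of Nfe2l2, is held in the cytoplasm and marked for destruction by KEAP1, a sensor of oxidants and electrophiles. When KEAP1 is modified, NRF2 enters the nucleus, pairs with small MAF proteins and binds antioxidant response elements, a step that the repressor BACH1 opposes. Liver is a main site of glutathione synthesis, which draws its cysteine partly from methionine. The enzymes in question carry the path from cystine import to the reduced peptide and its use against peroxides and quinones.

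RNA came from livers of Sprague Dawley rats, 20 weeks old, which were Tspo knockout (KO) or wild type (WT). From 12 weeks of age they were given a methionine- and choline-deficient (MCD) diet or chow for 8 weeks. TSPO, the translocator protein, sits in the outer membrane of mitochondria and binds cholesterol. An MCD diet brings on steatohepatitis, in which a fatty liver becomes inflamed. The 4 groups KO-MCD, WT-MCD, KO-CHOW and WT-CHOW hold 4 libraries each, numbered in their labels. The sources used here do not give how the knockout was made or which part of Tspo it removed. The labels do not name separate animals for the libraries of a group either, and p-values therefore reflect how these libraries varied, which may be technical.

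Library totals were 10749769 to 15347832 counts in KO-MCD, 10931113 to 15762650 in WT-MCD, 11330033 to 12521178 in KO-CHOW and 8745756 to 12896848 in WT-CHOW. All 9 hepatocyte markers examined were detected. Their summed level was 86210 to 104700 CPM (counts scaled to the library total times its TMM factor) in KO-MCD and 80870 to 118100 CPM in WT-MCD, against 163700 to 213200 CPM in KO-CHOW and 158300 to 185400 CPM in WT-CHOW. Most of each sum was Alb, which ran from 60933 CPM in WT-MCD 2 to 167237 CPM in KO-CHOW 2. In each genotype 4 of these 9, Ttr, Serpina1, Alb and Fgb, were called lower on the MCD diet and 0 higher. Of all genes 18.5% were called lower in KO livers and 15.9% in WT livers. The other hepatocyte markers, among them Cps1, Apob and Hnf4a, were not called. The sum of 4 bile duct markers was 74.75 to 117.8 CPM in KO-MCD and 71.84 to 130.3 CPM in WT-MCD, against at most 32.02 CPM in KO-CHOW and 38.57 CPM in WT-CHOW, and Epcam and Spp1 were called higher in each genotype. The part of such markers in the diet results below was not tested. Libraries fell apart by diet on the first principal component, which held 55.2% of the variance. The second component held 16.1%. On it the library labelled KO-CHOW 4 lay at 63.7, the library labelled KO-MCD 1 at 44.2 and WT-CHOW 4 at 33. The other 13 ran from -43.2 to 9.1. At the low end WT-CHOW 3, at -43.2, and WT-CHOW 1, at -38.4, lay farther from 0 than WT-CHOW 4. The 3 at the high end also had the lowest values of an index of long minus short messages. These were -1.48, -0.91 and -0.55, against -0.25 or more in the others. The index also parted the diets: it was 1.02 to 1.56 in the other 7 MCD libraries, against -0.25 to 0.20 in the other 6 chow libraries. Its part in the diet results was read only by adding it to the model. Calls of the 9 genes, Nfe2l2 and Keap1 that this changes are given beside them. Over all genes it took the diet calls from 4514 to 2689 in KO livers and from 3809 to 3068 in WT livers. Calls and counts of marker genes and of the other list genes below are without the index, and how it would change them is not given. Tspo was 4.17, 1.66, 1.02 and 1.21 CPM in KO-MCD 1 to 4, against 7.63 to 9.34 CPM in WT-MCD. It was 1.14, 0.656, 1.29 and 4.42 CPM in KO-CHOW 1 to 4, against 3.61 to 5.23 CPM in WT-CHOW. Tspo of the library labelled KO-CHOW 4 thus lay within the WT-CHOW range, and that of the library labelled KO-MCD 1 lay between the genotypes. Every direction for the knockout below includes both libraries unless stated, and values without all 3 libraries that stand apart, a choice made after seeing the data, are given beside the results they change.

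On the MCD diet KO livers held more message of 1 of the 9 genes than on chow, Srxn1, with a log2 fold change of 0.75. In WT livers 4 were higher on the MCD diet, Srxn1, Nqo1, Gclm and Gss, with log2 fold changes of 0.47 to 1.10. Hmox1 and Slc7a11, both well-known NRF2 targets, did not pass the test in either genotype and had fold changes below 0 in both. The count of 1 higher and 0 lower in KO livers stands against 21.9% of 11162 genes called higher and 18.5% called lower in that comparison. The count of 4 higher and 0 lower in WT livers stands against 18.2% called higher and 15.9% called lower. Calls are at a Benjamini-Hochberg adjusted p under 0.05 in edgeR's quasi-likelihood test over all genes tested, and all 9 genes passed the filter on low counts. In bulk liver, fewer cells of a type and less RNA per cell cannot be told apart.

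**Figure D1:**
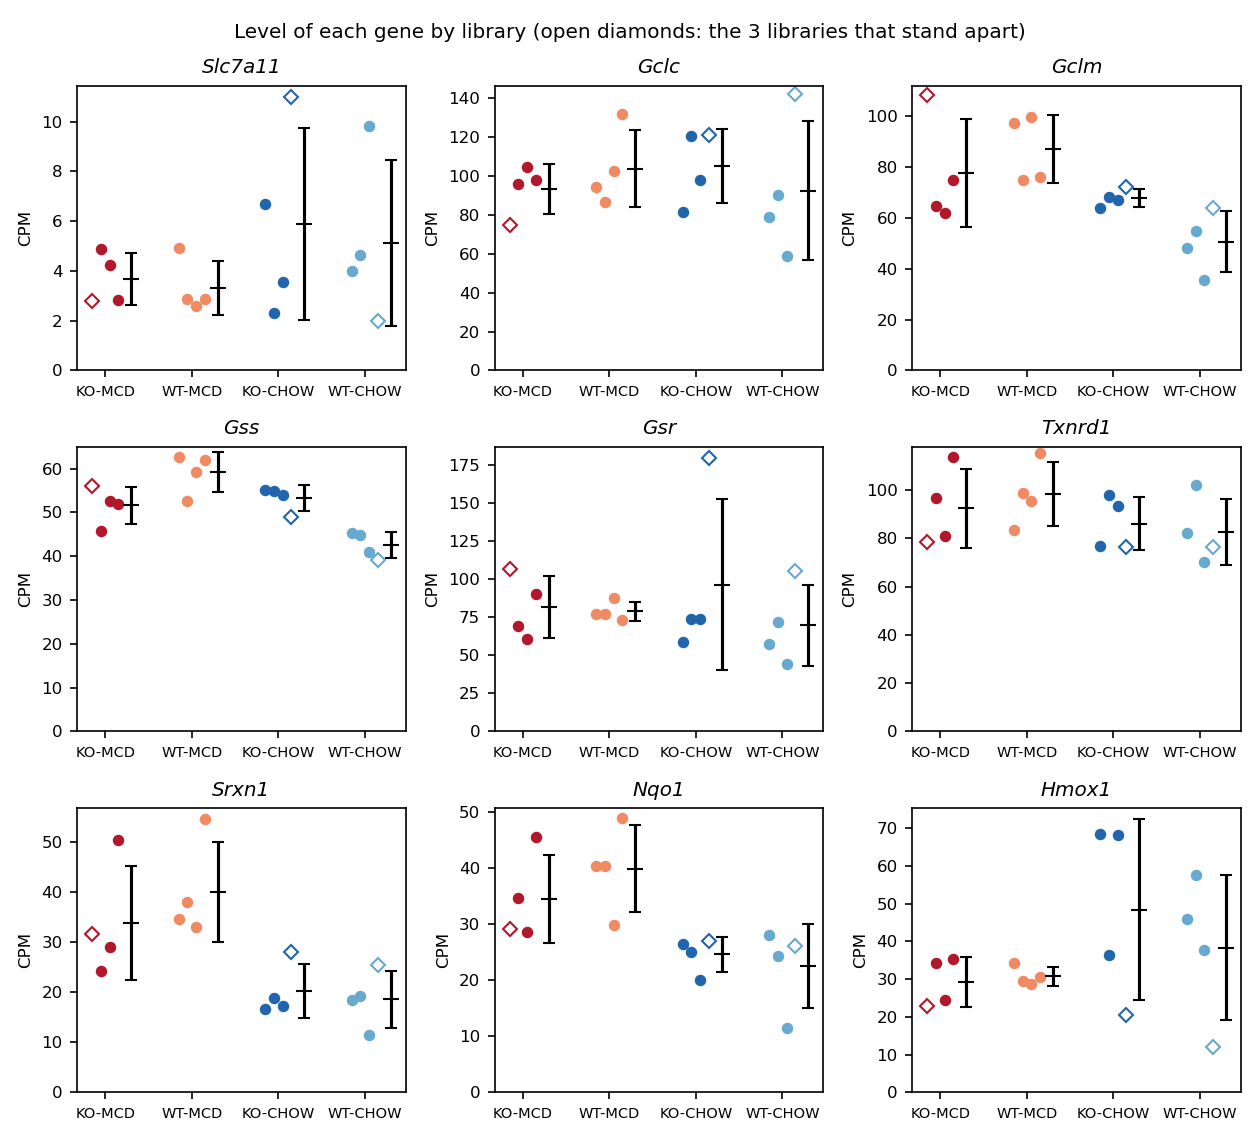
CPM of each of the 9 genes in every library (points, KO-MCD, WT-MCD, KO-CHOW and WT-CHOW from left to right) with the group mean and SD (black bars, n = 4). Open diamonds are the 3 libraries that stand apart. Srxn1, Nqo1, Gclm and Gss of WT-MCD lie wholly above WT-CHOW, while Gsr of the library labelled KO-CHOW 4, at 180.2 CPM, lies far above its group.

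Promoter sequence bears on these genes because NRF2 acts through a short element. RefSeq gene starts of the rat assembly GRCr8 gave windows of 250 bases before the start for 7 of the 9 genes, 8 windows in all since Txnrd1 has a pair; Gsr and Hmox1 were not matched. The core of the antioxidant response element, TGACNNNGC, was searched on both strands. It was present in 2 of the 8 windows, against 3373 of all 33469 windows (10.1%). In Gclm the match covers bases -172 to -164 on the gene's opposite strand, read there as TGACTAAGC. In the second entry of Txnrd1 it covers bases -78 to -70, again on the opposite strand, read there as TGACAAAGC. The windows with a match are shown 5' to 3' on the gene's strand, ending at the base before the start, with the matched bases in capitals. Gclm is among the genes that rose in WT livers on the MCD diet, and Txnrd1 is not.
Gclm: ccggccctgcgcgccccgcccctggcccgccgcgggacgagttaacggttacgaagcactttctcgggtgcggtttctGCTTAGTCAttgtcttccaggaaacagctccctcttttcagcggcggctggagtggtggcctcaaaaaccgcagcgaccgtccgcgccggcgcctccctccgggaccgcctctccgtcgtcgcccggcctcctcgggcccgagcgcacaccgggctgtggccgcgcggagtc
Txnrd1, second entry: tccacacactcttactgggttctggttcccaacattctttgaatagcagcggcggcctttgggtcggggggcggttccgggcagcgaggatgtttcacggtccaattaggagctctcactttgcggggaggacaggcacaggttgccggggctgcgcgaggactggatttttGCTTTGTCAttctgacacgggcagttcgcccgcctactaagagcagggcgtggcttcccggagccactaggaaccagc
The windows of Srxn1, Nqo1 and Gss, which rose with Gclm, do not hold these letters, which says nothing of elements farther away.

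Slc7a11, the cystine and glutamate exchanger xCT that brings in the sulfur for glutathione, was low throughout, with 21 to 85 counts per library. Its level was 2.78, 4.87, 4.22 and 2.82 CPM in KO-MCD 1 to 4 and 4.92, 2.87, 2.61 and 2.87 CPM in WT-MCD 1 to 4. On chow it was 6.70, 2.30, 3.56 and 11.0 CPM in KO-CHOW 1 to 4 and 3.99, 4.65, 9.82 and 2.00 CPM in WT-CHOW 1 to 4. The chow libraries were scattered and overlapped the MCD libraries in both genotypes. The log2 fold of MCD over chow was -0.66 ± 0.46 in KO livers (adjusted p = 0.260) and -0.60 ± 0.47 in WT livers (adjusted p = 0.329). Part of its expected counts, like those of Srxn1, are fractions of reads shared with other genes.

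Gclc, the catalytic subunit of glutamate-cysteine ligase, which makes the first bond of glutathione, kept overlapping ranges. It was 75.0, 95.9, 105 and 98.1 CPM in KO-MCD and 81.3, 121, 97.9 and 121 CPM in KO-CHOW. WT livers had 94.4, 86.5, 103 and 132 CPM in WT-MCD and 79.0, 90.5, 58.8 and 142 CPM in WT-CHOW. The WT-CHOW libraries alone spanned the whole range of the other groups. Its log2 fold was -0.17 ± 0.23 in KO livers (adjusted p = 0.574) and 0.17 ± 0.23 in WT livers (adjusted p = 0.605). WT-CHOW 4 held the highest level, and with the 3 libraries that stand apart left out the WT value was 0.45 ± 0.17 (adjusted p = 0.0428).

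Gclm, the modifier subunit that makes the ligase more active, was called for the diet in WT livers. In the knockout it was 108, 64.9, 62.1 and 74.8 CPM in KO-MCD, against 63.9, 68.1, 67.1 and 72.1 CPM in KO-CHOW. These groups overlapped, with the highest value in the library labelled KO-MCD 1, and the log2 fold was 0.19 ± 0.20 (adjusted p = 0.454). In the wild type it was 97.5, 74.9, 99.5 and 76.2 CPM in WT-MCD, against 48.3, 54.9, 35.5 and 63.9 CPM in WT-CHOW. All 4 WT-MCD libraries lay above all 4 WT-CHOW libraries, and the log2 fold was 0.78 ± 0.20 (adjusted p = 0.00754). Leaving out the 3 libraries that stand apart gave 0.02 ± 0.16 in KO livers and 0.91 ± 0.15 in WT livers (adjusted p = 0.931 and 0.000208). With the index of long minus short messages in the model, Gclm was called in KO livers too, at 0.52 ± 0.18 (adjusted p = 0.0484).

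As a description of the balance of the subunits, the ratio of Gclm to Gclc counts was taken within each library. It was 1.44, 0.676, 0.593 and 0.763 in KO-MCD and 1.03, 0.866, 0.970 and 0.576 in WT-MCD. On chow it was 0.786, 0.565, 0.686 and 0.596 in KO-CHOW and 0.612, 0.606, 0.604 and 0.450 in WT-CHOW. The ratio is not corrected for message length, so it compares libraries and not the subunits. WT-CHOW gave the narrowest range of the 4 groups, 0.450 to 0.612, and KO-MCD gave the widest because of the library labelled KO-MCD 1.

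Gss, glutathione synthetase, which adds glycine in the second step, varied little within groups, with a coefficient of variation of 5.56% to 8.19%. In the knockout it was 55.9, 45.8, 52.7 and 52.0 CPM in KO-MCD, against 55.2, 54.9, 54.0 and 48.9 CPM in KO-CHOW. These groups overlapped almost wholly, with a log2 fold of -0.05 ± 0.12 (adjusted p = 0.778). WT livers had 62.6, 52.6, 59.3 and 62.0 CPM in WT-MCD, against 45.2, 44.9, 41.0 and 39.1 CPM in WT-CHOW. The WT groups did not overlap, and the log2 fold was 0.47 ± 0.12 (adjusted p = 0.00698). With any 1 of the 8 WT libraries left out, the WT log2 fold stayed between 0.44 and 0.53.

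Gsr, glutathione reductase, which returns oxidised glutathione to the reduced form, was dominated by single libraries. It was 107, 69.4, 61.0 and 90.2 CPM in KO-MCD and 58.7, 73.7, 74.0 and 180.2 CPM in KO-CHOW. WT livers had 77.4, 77.4, 87.5 and 73.5 CPM in WT-MCD and 57.4, 72.0, 44.1 and 106 CPM in WT-CHOW. In KO-MCD, KO-CHOW and WT-CHOW the highest value belonged to the library that stands apart. The log2 fold was -0.24 ± 0.32 in KO livers (adjusted p = 0.569) and 0.18 ± 0.32 in WT livers (adjusted p = 0.693). With these 3 left out it was 0.10 ± 0.18 in KO livers (adjusted p = 0.667), and in WT livers it was 0.45 ± 0.17 and passed the threshold (adjusted p = 0.0357). The WT value also passed with the index in the model, at 0.84 ± 0.30 (adjusted p = 0.0466).

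The thioredoxin arm has its own reductase and a repair enzyme. Srxn1, sulfiredoxin, which restores peroxiredoxins that have been oxidised too far, had the largest diet difference of the 9 genes in each genotype. It was 31.6, 24.2, 29.1 and 50.4 CPM in KO-MCD, against 16.7, 18.8, 17.2 and 28.1 CPM in KO-CHOW. In the wild type it was 34.6, 38.0, 32.9 and 54.6 CPM in WT-MCD, against 18.5, 19.2, 11.4 and 25.4 CPM in WT-CHOW. The WT groups did not overlap, and the KO groups overlapped only because the library labelled KO-CHOW 4 exceeded KO-MCD 2. The log2 fold was 0.75 ± 0.27 in KO livers (adjusted p = 0.0363) and 1.10 ± 0.27 in WT livers (adjusted p = 0.00565). The KO call was lost when any of 4 single libraries was left out: the log2 fold was then 0.49 without KO-MCD 4 (adjusted p = 0.160) and 0.66 to 0.71 without KO-CHOW 1, 2 or 3 (adjusted p = 0.0754 to 0.0904). Nor did it pass once the index was a term of the model, at 0.92 ± 0.34 (adjusted p = 0.0602), or when the KO groups were fitted alone, at 0.74 (adjusted p = 0.0550). With the 3 libraries that stand apart left out it was 0.98 ± 0.27 in KO livers (adjusted p = 0.00868).

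Txnrd1, cytosolic thioredoxin reductase, did not pass the test in either genotype. It was 78.4, 96.8, 81.0 and 114 CPM in KO-MCD and 76.7, 97.8, 93.4 and 76.6 CPM in KO-CHOW. In WT-MCD it was 83.4, 98.9, 95.6 and 115 CPM, against 82.2, 102, 70.1 and 76.4 CPM in WT-CHOW. The groups overlapped in both genotypes, and the log2 fold was 0.10 ± 0.17 in KO livers (adjusted p = 0.640) and 0.25 ± 0.17 in WT livers (adjusted p = 0.253).

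Nqo1, the quinone reductase that is the classical NRF2 target, had MCD libraries above chow libraries in both genotypes. It was 29.1, 34.6, 28.6 and 45.6 CPM in KO-MCD, against 26.3, 24.9, 20.1 and 27.0 CPM in KO-CHOW. In the wild type it was 40.4, 40.3, 29.9 and 48.8 CPM in WT-MCD, against 28.1, 24.4, 11.4 and 26.2 CPM in WT-CHOW. No MCD library reached down to a chow library of its genotype. The log2 fold was 0.49 ± 0.24 in KO livers, which did not pass the threshold (adjusted p = 0.116), and 0.82 ± 0.24 in WT livers (adjusted p = 0.0161). The WT call was lost without WT-MCD 4, where the log2 fold was 0.71 (adjusted p = 0.0551), and with the index of long minus short messages in the model (adjusted p = 0.0790). WT-CHOW 3, the shallowest library, was lowest of its group in Nqo1, Gclc, Gclm, Txnrd1, Srxn1 and Gsr; without it Nqo1 was at 0.60 (adjusted p = 0.0340), and the other 3 calls in WT livers also held.

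Counting groups whose libraries do not overlap, 1 of the 9 genes, Nqo1, was higher in KO-MCD than in KO-CHOW, and 4 were higher in WT-MCD than in WT-CHOW. The same count over all genes tested gave 17.6% higher and 14.0% lower in KO livers, and 20.1% higher in WT livers.

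Hmox1 is the inducible heme oxygenase, which opens the heme ring and is under both NRF2 and BACH1. Its fold changes were below 0 in both genotypes but were not called with all libraries. Its level was 22.8, 34.3, 24.4 and 35.3 CPM in KO-MCD, against 68.5, 36.4, 68.2 and 20.6 CPM in KO-CHOW. In the wild type it was 34.3, 29.5, 28.7 and 30.7 CPM in WT-MCD, against 46.0, 57.6, 37.9 and 12.1 CPM in WT-CHOW. In both chow groups the lowest library was number 4, which stands apart, and without it each chow group lay wholly above its MCD group. With all libraries the log2 fold was -0.73 ± 0.39 in KO livers (adjusted p = 0.144) and -0.32 ± 0.39 in WT livers (adjusted p = 0.547). Without the 3 libraries that stand apart Hmox1 fell in both: by 0.88 on the log2 scale in KO livers (adjusted p = 0.00429) and by 0.62 in WT livers (adjusted p = 0.0218). Leaving out the library labelled KO-CHOW 4 alone gave -0.98 in KO livers (adjusted p = 0.0445), and the index in the model gave -1.29 (adjusted p = 0.0359). With library totals and no TMM factors Hmox1 was at -0.03 in KO livers and 0.18 in WT livers, and was called in neither.

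Hmox1 is also made by macrophages that clear red cells, so markers of both were read beside it. The summed level of 5 red cell markers was 101.6 to 141.7 CPM in KO-MCD and 84.9 to 233.8 CPM in WT-MCD, against 494.2 to 4794 CPM in KO-CHOW and 1037 to 1546 CPM in WT-CHOW. The 4794 CPM came from the library labelled KO-CHOW 4, which stands apart and had the lowest Hmox1 of its group. Its Hbb was 3768 CPM, against 262 to 986 CPM in KO-CHOW 1 to 3. All 5 red cell markers fell on the MCD diet in both genotypes. For 13 macrophage and Kupffer cell markers the sum was 638.9 to 950.6 CPM in KO-MCD, 655.4 to 896.7 CPM in WT-MCD, 665.0 to 1012 CPM in KO-CHOW and 567.9 to 828.7 CPM in WT-CHOW. Of those 13, 4 were called higher and 3 lower in KO livers, and 4 higher and 2 lower in WT livers, and each was detected in all 4 groups. The shares of all genes were 21.9% higher and 18.5% lower in KO livers, and 18.2% and 15.9% in WT livers. Their part in the level of Hmox1 was not tested.

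**Figure D2:**
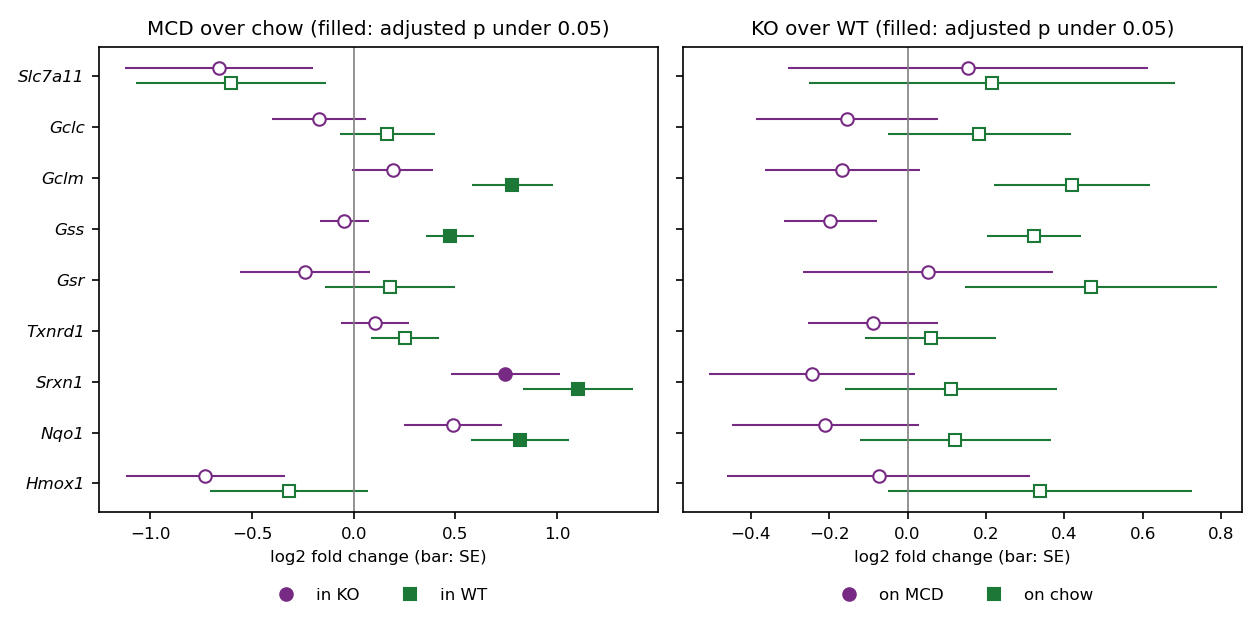
Log2 fold change ± SE of the 9 genes for MCD over chow (left, KO and WT livers) and for KO over WT (right, on MCD and on chow), from edgeR; filled symbols have an adjusted p under 0.05. Srxn1 is filled in both genotypes on the left, Gclm, Gss and Nqo1 in WT livers only, and no symbol is filled on the right.

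Without the 3 libraries that stand apart the calls among the 9 genes were 1 higher and 1 lower in KO livers, against 27.9% of genes higher and 23.8% lower, and 6 higher and 1 lower in WT livers, against 25.8% and 24.7%. In KO livers the genes were Srxn1 and, lower, Hmox1. In WT livers they were Srxn1, Gclm, Nqo1, Gss, Gclc and Gsr and, lower, Hmox1. The median log2 fold of the 9 genes, with all libraries, was -0.05 in KO livers and 0.25 in WT livers, against 0.04 and -0.00224 over all genes tested. Fold changes are relative to the bulk of genes: with library totals and no TMM factors the median gene itself shifted by 0.77 in KO livers and 0.53 in WT livers. On that scale Gss had a log2 fold of 0.67 in KO livers (adjusted p = 0.00272), the opposite sign.

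The genotypes were then compared on each diet. Between KO-MCD and WT-MCD 0 of the 9 genes were called, as were 0.0% of all genes, and 0 of the 9 had an unadjusted p under 0.05, against 0.726% of all genes. Of the 9 fold changes 7 were below 0 and 2, for Gsr and Slc7a11, above. They ran from -0.24 ± 0.26 for Srxn1 to 0.15 ± 0.46 for Slc7a11. All 9 genes overlapped between the groups. The share of all genes without overlap was 0.421% higher and 0.376% lower in KO-MCD. With the 3 libraries that stand apart left out, Gsr was at -0.10 ± 0.16 and Hmox1 at 0.03 ± 0.21, both with the other sign. Gclm was then at -0.37 ± 0.15 and Gss at -0.24 ± 0.10, and no gene of the 9 was called (adjusted p = 0.9999 for each).

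Between KO-CHOW and WT-CHOW 0 of the 9 genes were called by edgeR, as against 0.00896% of all genes, and 0 by DESeq2 or limma. Tspo was not called by edgeR here either. It was at -2.04 ± 0.27 (adjusted p = 0.0108) without both KO libraries of high Tspo. Of the 9 genes only Gss had an unadjusted p under 0.05, against 10.3% of all genes. Its KO-CHOW libraries all lay above its WT-CHOW libraries, where 1.75% of genes were higher and 2.59% lower without overlap, and the log2 fold was 0.32 ± 0.12 (adjusted p = 0.459). Gclm came next with 0.42 ± 0.20 (adjusted p = 0.478), its groups meeting at 63.9 CPM in both KO-CHOW 1 and WT-CHOW 4. All 9 fold changes were above 0, with a median of 0.22 against -0.02 over all genes. This does not hold without both KO libraries of high Tspo, where Gsr was at -0.02, Srxn1 at -0.09 and Slc7a11 at -0.26, nor with library totals, where 5 of the 9 were below 0. Without the 3 libraries that stand apart Slc7a11 turned to -0.52 ± 0.41 and the other 8 stayed above 0, from 0.07 for Txnrd1 to 0.52 for Gclm. The adjusted p of Gclm was then 0.0721 and that of Gss 0.0891.

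Whether the diet acted differently in the genotypes was asked with the difference of the diet effects, KO minus WT. Of the 9 genes 0 were called by edgeR, DESeq2 or limma, and of all genes 0.0% by edgeR. The largest differences were -0.59 ± 0.28 for Gclm and -0.52 ± 0.17 for Gss (adjusted p = 1 for both). An unadjusted p under 0.05 was reached by 2.96% of all genes and, of the 9, by Gss. So the calls of Gclm, Gss and Nqo1 in WT livers and not in KO livers are not shown to differ between the genotypes. All 9 differences were below 0, with a median of -0.36 against 0.02 over all genes. This comparison uses the same 16 libraries as the others, so its signs are no separate evidence. Without the 3 libraries that stand apart Gclm was at -0.89 ± 0.22 (adjusted p = 0.0911) and Gss at -0.56 ± 0.15 (adjusted p = 0.103), while Slc7a11 was at 0.79 ± 0.56. With library totals 2 of the 9 differences were above 0.

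**Figure D3:**
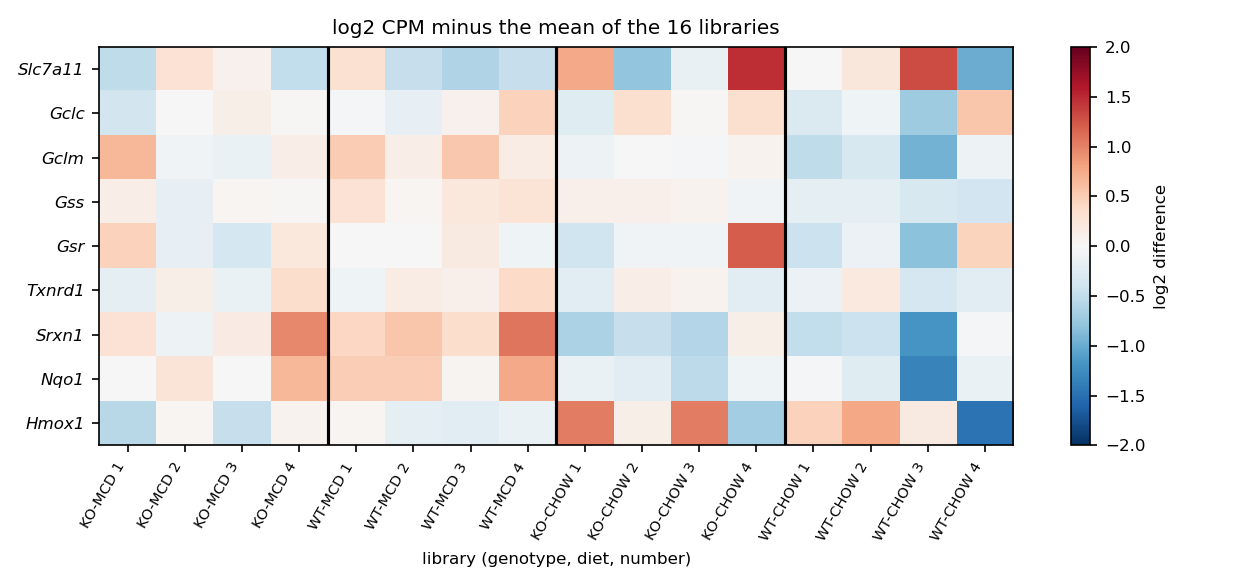
Log2 CPM of the 9 genes in each library minus the mean of the 16 libraries (colour, from blue for lower to red for higher; black lines part the groups). Srxn1 is red in all WT-MCD libraries. Gclm, Gss and Nqo1 are also above the mean in all of them, but only just for Nqo1 in WT-MCD 3 (0.05) and Gss in WT-MCD 2 (0.04). Slc7a11 and Gsr are reddest in the library labelled KO-CHOW 4.

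How far the genes moved together from library to library was described after each group's mean was taken away. Over the 36 pairs and 16 libraries Pearson's r ran from -0.70 to 0.76, with a median of 0.0716. Nqo1 and Srxn1 had the highest, 0.76, and 0.78 in the 13 libraries that do not stand apart. Gclm and Gsr had 0.68, and 0.81 in the 13, while Txnrd1 and Gsr had -0.05 in all and 0.77 in the 13. The lowest r, -0.70 for Hmox1 and Gsr, became 0.33 without the 3 libraries. Slc7a11 had negative r with Txnrd1 (-0.44, and -0.74 in the 13) and with Gclc (-0.48, and -0.70 in the 13). These values share library depth and scaling, and no test is given for them.

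The gene most like each of the 9 in the same measure, over the 16 libraries, was Slc23a2 for Nqo1 (r = 0.885), Dcaf10 for Gclc (0.911), Aqp11 for Gclm (0.899), Fam53a for Hmox1 (0.940), Tfe3 for Txnrd1 (0.929), Ywhaz for Srxn1 (0.907), Ttpa for Gsr (0.964), Tlcd1 for Gss (0.863) and Ormdl1 for Slc7a11 (0.941). None of the 9 was the likest gene of another. Each r is the highest found among the 11162 genes tested, so a high value comes easily with 16 libraries. These r include the 3 libraries that stand apart and were not taken without them.

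Messages of the pathway's regulators also differed by diet. Nfe2l2, which encodes NRF2, was 65.6, 58.1, 108 and 58.3 CPM in KO-MCD, against 119.8, 146, 142 and 212 CPM in KO-CHOW. In the wild type it was 66.9, 73.6, 65.7 and 91.6 CPM in WT-MCD, against 128, 136, 119 and 124 CPM in WT-CHOW. Neither genotype showed overlap between the diets, and Nfe2l2 fell by 1.10 on the log2 scale in KO livers (SE 0.21, adjusted p = 0.00105) and by 0.77 in WT livers (SE 0.21, adjusted p = 0.0118). Once the index was a term of the model, Nfe2l2 in WT livers was at -0.65 ± 0.26 and no longer called (adjusted p = 0.0707). Its inhibitor Keap1 fell by 0.78 in KO livers (SE 0.11, adjusted p = 0.000103) and by 0.50 in WT livers (SE 0.11, adjusted p = 0.00351). With library totals and no TMM factors neither gene was called in either genotype, and Keap1 in WT livers was at 0.03. Mafk, a small MAF partner of NRF2 and BACH1, rose by a log2 fold of 1.02 ± 0.16 in KO livers (adjusted p = 0.000165) and 1.13 ± 0.16 in WT livers (adjusted p = 8.345e-05). The repressor Bach1 rose by 1.28 ± 0.25 in KO livers (adjusted p = 0.00117) and 1.11 ± 0.25 in WT livers (adjusted p = 0.00331). Counts of the lists are to be read beside the shares of all genes called, 21.9% higher and 18.5% lower in KO livers and 18.2% higher and 15.9% lower in WT livers. Over the 9 listed regulators, 3 rose and 5 fell in KO livers, and 3 rose and 3 fell in WT livers; Maff was the third that rose, and Rbx1 fell in both. Their median log2 fold was -0.65 in KO livers and -0.25 in WT livers, against 0.04 and -0.00224 over all genes.

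**Figure D4:**
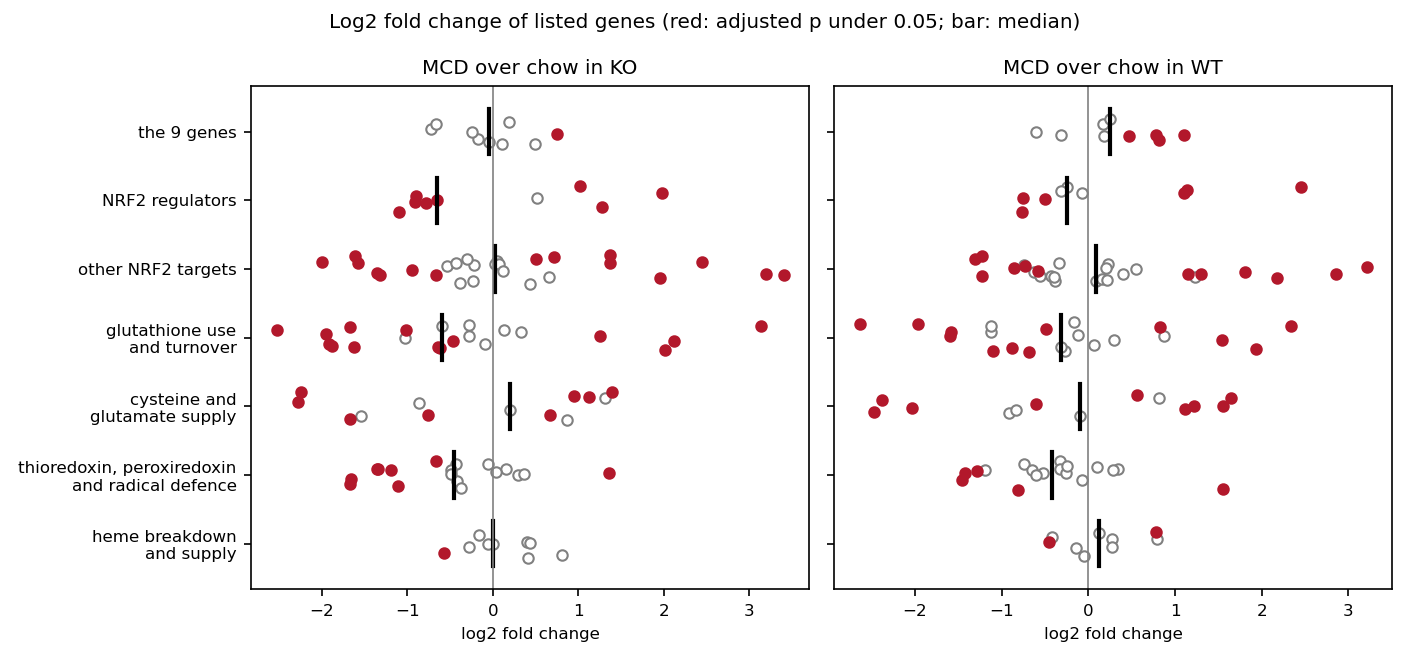
Log2 fold change of MCD over chow for the 9 genes and for the genes of 6 related lists, in KO livers (left) and WT livers (right). Each circle is a gene, red where the adjusted p is under 0.05, and black bars are medians. Of the 6 lists, all but that of heme breakdown and supply have red circles on both sides of 0 in both genotypes.

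Of 27 other listed NRF2 targets, 8 rose and 7 fell in KO livers, and 6 rose and 6 fell in WT livers. Over all genes 21.9% rose and 18.5% fell in KO livers, and 18.2% rose and 15.9% fell in WT livers. The median log2 fold of the list was 0.02 in KO livers and 0.09 in WT livers, against 0.04 and -0.00224 over all genes. Those that rose include the conjugate exporters Abcc3 and Abcc4: Abcc3 had a log2 fold of 3.40 ± 0.34 in KO livers and 2.86 ± 0.33 in WT livers (adjusted p = 6.04e-06 and 1.8e-05). Those that fell include Blvrb, a biliverdin reductase, with -0.94 ± 0.16 in KO livers and -0.74 ± 0.16 in WT livers (adjusted p = 0.000308 and 0.00217), and Txn1, thioredoxin itself, with -1.57 ± 0.43 and -1.31 ± 0.43 (adjusted p = 0.00922 and 0.0272). Akr7a3, an aldehyde reductase, rose by 1.37 ± 0.29 in KO livers and 1.30 ± 0.29 in WT livers (adjusted p = 0.00193 and 0.00323). Counts of glutathione transferases are uncertain, since close copies share reads.

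Of 21 genes that use or break down glutathione, 4 rose and 10 fell in KO livers, where 21.9% of all genes rose and 18.5% fell. In WT livers 4 rose and 8 fell, where 18.2% of all genes rose and 15.9% fell. The median log2 fold of the list was -0.59 in KO livers and -0.32 in WT livers, against 0.04 and -0.00224 over all genes. Gpx1, the main glutathione peroxidase of the cytosol, was 254 to 546 CPM in KO-MCD and 179 to 291 CPM in WT-MCD, against 1639.6 to 3309 CPM in KO-CHOW and 1219.7 to 2201 CPM in WT-CHOW. It fell by 2.53 on the log2 scale in KO livers (SE 0.31, adjusted p = 2.56e-05) and by 2.64 in WT livers (SE 0.31, adjusted p = 2.32e-05). Hagh, the glyoxalase that releases glutathione again, fell by 1.95 in KO livers and 1.97 in WT livers (adjusted p = 7.64e-06 and 7.69e-06). Gpx3, the secreted peroxidase, rose by 2.01 ± 0.25 in KO livers and 1.54 ± 0.25 in WT livers (adjusted p = 3.34e-05 and 0.000291). Ggt1, which starts the breakdown of glutathione outside the cell, rose by 2.12 ± 0.51 and 2.34 ± 0.50 (adjusted p = 0.00402 and 0.00231).

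Of 13 genes of cysteine and glutamate supply, 4 rose and 4 fell in KO livers, and 5 rose and 4 fell in WT livers. The shares of all genes are those given for glutathione use, and the list's medians were 0.20 in KO livers and -0.10 in WT livers. Cbs, which commits homocysteine from methionine to cysteine, fell by 2.25 on the log2 scale in KO livers (SE 0.29, adjusted p = 3.77e-05) and by 2.38 in WT livers (SE 0.29, adjusted p = 3.04e-05). Cdo1, which spends cysteine on taurine and sulfate, fell by 2.28 and 2.48 (adjusted p = 0.000613 and 0.000417). Slc3a2, the heavy chain that pairs with the Slc7a11 product, rose by 0.95 ± 0.23 in KO livers and 1.12 ± 0.23 in WT livers (adjusted p = 0.00391 and 0.00164), while Slc7a11 itself did not pass the test.

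Of 18 genes of the thioredoxin, peroxiredoxin and radical defence list, 1 rose and 7 fell in KO livers, and 1 rose and 4 fell in WT livers, beside the same shares of all genes. The list's medians were -0.46 in KO livers and -0.42 in WT livers. Cat, catalase, fell by 1.66 on the log2 scale in KO livers (SE 0.19, adjusted p = 1.59e-05) and by 1.46 in WT livers (SE 0.19, adjusted p = 5.055e-05), and Sod1, cytosolic superoxide dismutase, by 1.34 and 1.43 (adjusted p = 0.000284 and 0.000209). Sesn3, a sestrin, was the gene that rose, 2.56-fold in KO livers and 2.93-fold in WT livers (adjusted p = 0.000428 and 0.000183). Txnrd2, the mitochondrial reductase, fell by 1.11 in KO livers and 0.81 in WT livers (adjusted p = 0.000386 and 0.00407), against the values of Txnrd1 given above. The falls numbered 8 in KO livers and 9 in WT livers once the 3 libraries that stand apart were left out. The shares of all genes that fell were then 23.8% in KO livers and 24.7% in WT livers.

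Of 9 genes of heme breakdown and supply, 0 rose and 1 fell in KO livers, and 1 rose and 1 fell in WT livers, beside the same shares of all genes. Hmox2, the constitutive heme oxygenase, fell by 0.57 in KO livers and 0.46 in WT livers on the log2 scale (adjusted p = 0.00315 and 0.0141), and Slc40a1, the iron exporter ferroportin, rose by 0.77 ± 0.19 in WT livers (adjusted p = 0.00503). Once the 3 libraries that stand apart were left out 2 rose in KO livers and 4 in WT livers, beside 27.9% and 25.8% of all genes. No gene of the 6 lists was called between the genotypes on either diet or in the difference of the diet effects.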

How the data were processed

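Poly(A) RNA of 16 rat liver libraries was sequenced after stranded mRNA library preparation, per the labels' protocols. The series title speaks of mice, while every sample is labelled rat. One table holds expected counts per gene, made by the authors; Bowtie2 2.1.0, RSEM 1.2.15 and the build rn6 appear in the submitters' processing notes, without roles. Expected counts share reads among similar genes, and 88.9% were whole. The other table holds a normalised signal in CPM scaled by TMM factors, as deposited by the authors; each of 202017 values above 0 was its rounded count multiplied by a constant of the library (relative tolerance 1e-06). The sources used here do not state strand setting or annotation.

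Counts were rounded and fitted in R 4.3.3 with edgeR 4.0.16 (filterByExpr, TMM, 1 term per group, robust quasi-likelihood test). Of 17168 genes 11162 were tested, with a common biological coefficient of variation of 28% and 12 residual degrees of freedom. Calls are at adjusted p under 0.05 (Benjamini-Hochberg). Each SE is the size of the log2 fold divided by the root of F. CPM of the 9 genes came within 1.38% of the deposited signal. Log2 CPM have a prior count of 2. Chi-square values per gene between libraries of a group were 15.25 to 383.9, so none is another library of its group deposited again. Libraries of different groups were not compared in this way. Totals ran from 8745756 to 15762650 counts. Reads carry no molecular identifiers, so counts are not independent molecules.

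The alternatives were limma 3.58.1 on the deposited signal, DESeq2 1.42.0, other scalings and filters, a replicate block, and libraries left out. For the index, mean log2 CPM over 23 short-message genes was taken from that over 13 long-message genes, and the result set relative to the WT-CHOW mean. The scripts were tested on simulated data. The genes and lists were chosen with earlier results of these data known. Genes named are the 9 in each comparison, Tspo, Nfe2l2 and Keap1, and called list genes, mostly those with the smallest p. Others were chosen after their values were seen. Promoter windows are RefSeq's for GRCr8, another build than rn6, and serve for sequence only.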

Additional observations from a re-analysis of the deposited data

Results flagged for a closer look

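Among 36 sets of 4 libraries (the 9 genes in 4 groups) 2 held a library far from the others by Dixon's criterion at 95%, where the gap to the nearest library exceeds 0.829 of the range. Chance flags about 1 group in 20. Gsr in the library labelled KO-CHOW 4 was at 180.2 CPM, with a gap of 0.874 of the range. Slc7a11 in WT-MCD 1 was at 4.92 CPM, from 65 counts, with a gap of 0.886.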

How the results depend on the processing

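The number of the 9 genes called in WT livers by diet was 4. It was 7 without the 3 libraries that stand apart, and 3 to 4 with any 1 library left out. It was 6 with library totals, where 4806 of 11162 genes were called higher. In KO livers it was 1, and 0 with the 2 compared groups alone. It was 2 without the 3 libraries (Srxn1 and Hmox1) and 2 with the index as a term (Gclm and Hmox1). It was 5 with library totals, where 6447 of 11162 genes were called higher, and 0 to 2 with any 1 library left out. With the replicate block it was 2, Nqo1 joining Srxn1 (adjusted p = 0.0465). Same-numbered deviations had r of -0.38 to 0.51, over 0.1 in 7 of 24 pairs. Of 16 libraries 4 correlated best with one of their own number, so the numbers do not pair the libraries throughout. The highest r was between the libraries labelled KO-CHOW 4 and WT-CHOW 4. Srxn1 was highest in library 4 of each group, at 50.4 CPM in KO-MCD, 54.6 in WT-MCD, 28.1 in KO-CHOW and 25.4 in WT-CHOW. In the sample list the libraries numbered 4 come after those numbered 1 to 3 of every group, and the labels name no batch. A shift shared by the libraries numbered 4 alone was not tested. In both genotype comparisons and the difference of diet effects 0 of the 9 were called under every alternative run.

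Over all genes, the diet called 4514 in KO livers, 2689 with the index and 6852 with library totals, and 3347 to 5343 with 1 library left out. In WT livers it called 3809, and 2832 to 3875 with 1 library left out. KO against WT on chow called 1 gene, and 23 by DESeq2, 0 with the 2 groups alone, 2 by limma with either pseudocount, 4 without both KO libraries of high Tspo, 516 without the 3 libraries, 3 with the index, 2 with library totals, and 0 to 17 with 1 library left out. On MCD it called 0, and 1 without both KO libraries of high Tspo, without the 3 libraries or with the index, and 0 to 1 with 1 library left out. The difference of diet effects called 0, and 1 by DESeq2, 1 without both KO libraries of high Tspo and 20 without the 3 libraries, and 0 with any 1 library left out.

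With library totals Gss in KO livers changed sign to 0.67 and Keap1 in WT livers to 0.0342, with the median gene at 0.77 and 0.53. Of 1284 recomputed fold changes of single genes 67 had the other sign and 13 called ones were no longer called. The cause was not tested. The counts of Slc7a11, 21 to 85 per library, were the lowest of the 9 genes.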
